A study of Mus musculus with 5 samples.

Results

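The genes described here are 31 members of glycolysis, the route from glucose to pyruvate and lactate, and of gluconeogenesis, the route back to glucose, among the 32285 gene entries of a single-cell RNA sequencing study of injured mouse kidney. They were taken from a list of symbols and all 31 were found. Kidneys came from 5 mice after IRI (ischemia-reperfusion injury), of which 2 (mice 1 and 2) were taken at 48 h and 3 (mice 3, 4 and 5) at day 10. The labels give no strain, genotype, sex or age and name no agent or allele, and no uninjured kidney is among the groups. Each mouse is 1 library and 1 replicate, so every comparison of times sets 2 mice against 3.

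Hexokinase (Hk1, Hk2), phosphofructokinase (Pfkl, Pfkm, Pfkp) and pyruvate kinase (Pkm) catalyse the steps of glycolysis that run one way, and phosphoenolpyruvate carboxykinase (Pck1), fructose bisphosphatase (Fbp1) and glucose-6-phosphatase (G6pc) bypass those steps during glucose synthesis. The proximal tubule of the kidney is known for making glucose and for burning fatty acids, while distal segments use glucose and export or oxidise its products. Activated macrophages and neutrophils are known for a high glycolytic rate.

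The deposited annotation kept 23797 cells with 18 labels and 16 clusters, 3720 to 5912 cells and 45887945 to 78351722 UMIs (unique molecular identifiers, each 1 captured transcript) per mouse. Median UMIs per cell were 5823 and 6260 in the mice at 48 h and 10328.5, 11750 and 10448 in the mice at day 10, and 57 barcodes were kept in 2 or more libraries. Markers of the thick ascending limb, descending thin limb, intercalated, endothelial and interstitial cells were highest in the cells so labelled, macrophage markers in immune cluster 0 and neutrophil markers in immune cluster 5. The injured tubule markers (Havcr1, Krt20, Lcn2, Vcam1) summed to 257 to 1285 CPM in the cells labelled injured proximal tubule, against 43.0 to 170.3 in S1, but were highest in principal cells, so the label is used here only as the deposited name. Mouse 4 stood apart in the proximal tubule, where Kap, an abundant kidney transcript that responds to androgen, was at 204.2 CPM against 6646 and 9398 in mice 1 and 2 and 16909 and 12666 in mice 3 and 5; the counts of calls are given without mouse 4 below. In these sums over cells, a change in how many cells of a kind a label holds and a change in RNA per cell cannot be told apart.

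The level of a gene is given as CPM, its UMIs per 1000000 UMIs of all cells of that type in that mouse. The summed level was highest in Lrp2-negative S2/S3 proximal tubule cells at 9833 to 14151 CPM, cells with few UMIs, and next in intercalated cells of the collecting duct at 7752 to 10297. This order depends on the mitochondrial UMIs in the total. With them left out, Lrp2-negative cells were at 10304 to 14595, Lrp2-positive S2/S3 cells at 8883 to 13285 and intercalated cells at 8786 to 12076. The proximal tubule as a whole reached 6626 to 9368, the thick ascending limb 5921 to 7272, the neutrophil-like immune cluster 5 3966 to 6005 and the macrophage-like cluster 0 3030 to 5756. Interstitial cells at 2722 to 3283 and endothelial cells at 2547 to 2909 stood below all tubule types. Over the 22 types, clusters and labels ranked by their mean, every pair of neighbours overlapped in its range over mice, so only distant ranks differed beyond the spread. No test was run between cell types, because the labels were made from the expression of these same cells.

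**Figure D1:**
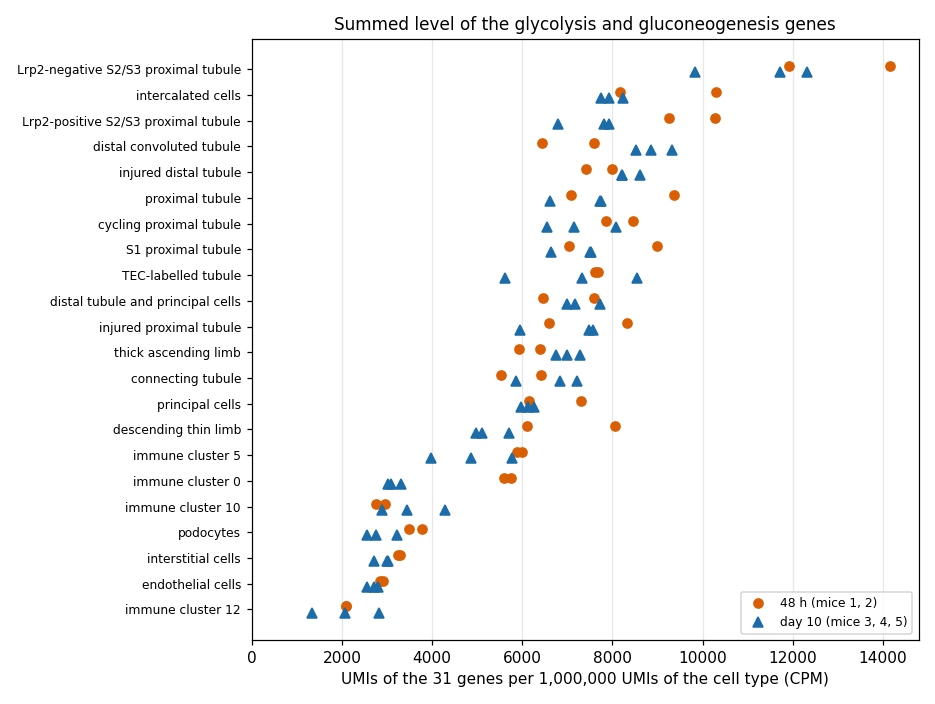
Summed CPM of the 31 genes (x axis, UMIs per 1,000,000) in each cell type, label or immune cluster (y axis, ordered by mean), with 1 point per mouse, circles for 48 h and triangles for day 10. Immune cluster 0 is the type whose 48 h mice (5597 and 5756) lie farthest above its day 10 mice (3030 to 3322).

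Hexokinase, which traps glucose in the cell as glucose-6-phosphate, was split by type. Hk1, the isozyme found in most tissues, was at 1.45 to 8.83 CPM in the proximal tubule, 68.5 to 73.6 in endothelial cells, 100.2 to 154 in the thick ascending limb and 136 to 164 in intercalated cells. Of the UMIs of Hk1 and Hk2 together, Hk1 made up 97.4% to 100% in intercalated cells, 94.1% to 98.7% in endothelial cells and 13.9% to 33.2% in immune cluster 0, the one of these in which the inducible isozyme Hk2 led. These are shares of 3′ tags, which count each captured transcript once whatever its length.

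Lactate dehydrogenase and the lactate carriers were divided otherwise, with endothelial cells on the side of immune cluster 0. Ldha, whose subunit favours making lactate, gave 74.1% to 91.5% of the UMIs of Ldha and Ldhb in immune cluster 0 and 63.7% to 75.8% in endothelial cells. Ldhb, whose subunit favours using it, led in the thick ascending limb, where Ldha held 10.9% to 18.6%, and in the distal tubule and principal cells, where it held 9.69% to 15.3%. Ldhb alone was 23.7% to 34.2% of all UMIs of the 31 genes in the distal tubule and principal cells. Slc16a3 (MCT4), a carrier known for lactate export, gave 97.4% to 100% of the UMIs of Slc16a1 and Slc16a3 in immune cluster 5, 75.5% to 89.3% in cluster 0 and 0.728% to 2.77% in the proximal tubule; in endothelial cells it gave 71.7% to 86.1%. Slc16a1 (MCT1), which carries lactate and pyruvate both ways, was at 35.8 to 41.2 CPM in the proximal tubule and at 0.846 to 2.79 in the distal tubule and principal cells.

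Genes of the way into the mitochondrion were highest in tubule cells. Mpc2, a subunit of the mitochondrial pyruvate carrier, was at 661 to 826.5 CPM in the proximal tubule, 712.5 to 949 in the thick ascending limb and 107 to 169 in immune cluster 0. Its partner Mpc1 was at 358 to 485 in the proximal tubule and 131 to 176 in cluster 0. Pdk1, a kinase that switches off pyruvate dehydrogenase, was at 2.12 to 4.11 in the proximal tubule, 27.8 to 86.5 in the thick ascending limb and 32.1 to 54.9 in endothelial cells.

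Pkm was at 19.2 to 42.5 CPM in the proximal tubule, against 253 to 348 in the thick ascending limb and 522.5 to 1087 in immune cluster 5, and none of these ranges overlapped. The gluconeogenic genes had the opposite pattern. Pck1 was at 208.5 to 1375 CPM in the proximal tubule and at 1.55 to 10.5 in the thick ascending limb, which is 0.623% to 2.11% of its proximal tubule level in the same mice. For Fbp1 this share was 0.903% to 1.65% and for G6pc 0.289% to 2.53%, beside 1.05% to 2.29% for 10 summed proximal tubule markers. The part of RNA from proximal tubule cells in the level of these 3 genes in the thick ascending limb was not tested. Khk, the kinase that starts the use of fructose, was at 4.02% to 7.70%, above the markers in every mouse.

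**Figure D2:**
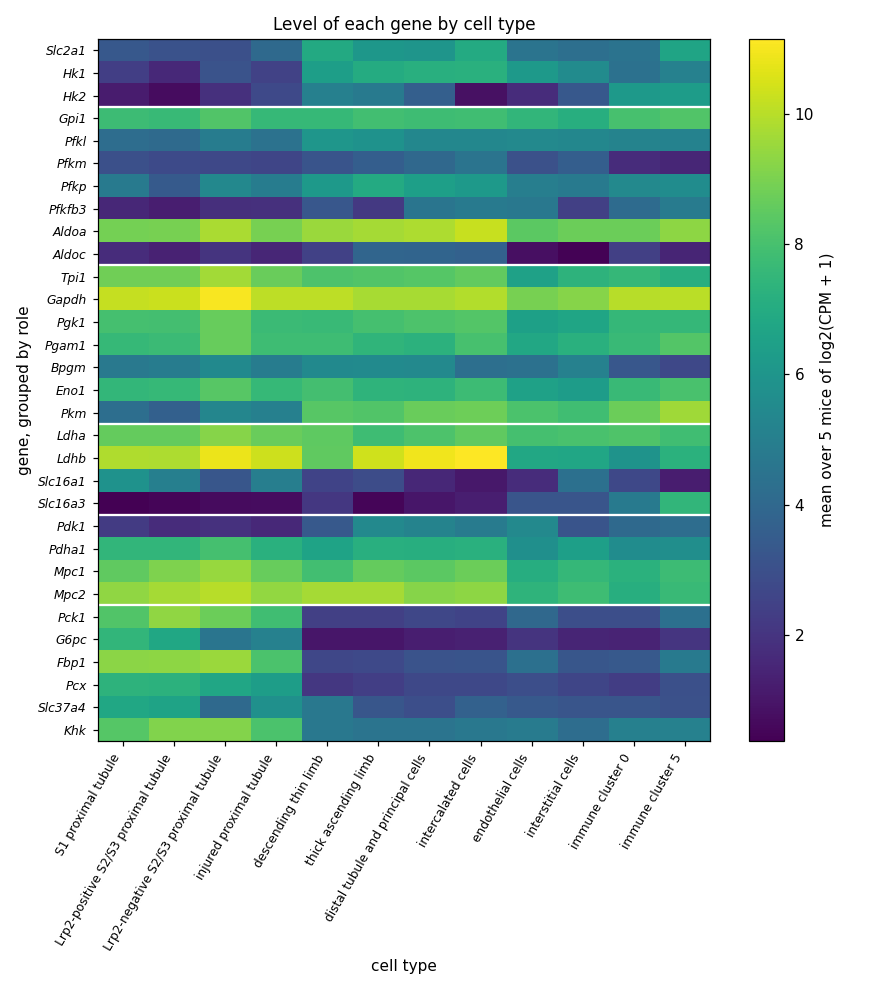
Mean over 5 mice of log2(CPM + 1) (colour) for each of the 31 genes (rows, grouped by role, with white lines between the groups) in 12 cell types or clusters (columns). The gluconeogenic genes at the bottom are bright in the 4 proximal tubule columns and dark elsewhere, while Hk1, Pkm and Slc2a1 are dark there.

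The change from 48 h to day 10 was tested in each type on UMIs summed per mouse with edgeR's quasi-likelihood test, with p-values adjusted over all genes of the type and a threshold of 0.05. Fold changes are log2, day 10 minus 48 h, after TMM scaling, which sets the middle of the genes near 0, with their standard errors. Nothing in the labels says more of the 5 animals, so these p-values measure the spread between these 5 samples. Calls without a mouse, under total counts or under another setting are given below without the share of all genes called in that fit. Their counts show how far the calls depend on the setting and are not a result about the members.

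In the macrophage-like immune cluster 0, 11 members fell and 2 rose of the 31, all of which passed the filter on low counts, so 13 of 31 were called where 24.1% of all genes were. The enzymes from triose phosphate to pyruvate fell together: of the 7 genes from Tpi1 to Pkm, 6 fell, and the median fold of the 7 was -1.01 against 0.07 over all genes. In single cells thinned to 5000 UMIs, the 31 genes gave a median of 0.5% and 0.52% of UMIs at 48 h and 0.26%, 0.26% and 0.24% at day 10. The lower quartiles at 48 h, 0.4% and 0.42%, lay above the upper quartiles at day 10, 0.34%, 0.36% and 0.34%. Between 86 and 299 cells per mouse had fewer UMIs and were left out.

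Pkm, the pyruvate kinase of most tissues, was at 754 and 829 CPM at 48 h and at 254, 314 and 256 at day 10 (log2 fold -1.47 ± 0.13, adjusted p = 0.0034). Slc16a3 was at 58.5 and 57.0 and then at 16.5, 17.8 and 12.4 (-1.84 ± 0.17, adjusted p = 0.00341). Pgk1, the kinase that makes the first ATP of the pathway, was at 326 and 329 and then at 128, 130.4 and 124 (-1.31 ± 0.10, adjusted p = 0.00244). In all 3 genes both mice at 48 h were above every mouse at day 10, by 2 times or more. Eno1, an enolase, was at 327 and 413 and then at 129, 143 and 134 (-1.40 ± 0.14, adjusted p = 0.00364). Gapdh, the dehydrogenase that supplies NADH to lactate formation, was at 1611 and 1589 and then at 752.5, 821.5 and 721.6 (-1.01 ± 0.10, adjusted p = 0.00394). Ldha was at 414 and 424 and then at 235, 219.9 and 208 (-0.87 ± 0.10, adjusted p = 0.00538).

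The other 5 genes that fell in cluster 0 did so by less, again without overlap of the groups. They were the glucose carrier Slc2a1 (-0.76 ± 0.19), the isomerase Tpi1 (-0.74 ± 0.09), the aldolase Aldoa (-0.64 ± 0.11), Hk1 (-0.64 ± 0.12) and the mutase Pgam1 (-0.53 ± 0.15, adjusted p = 0.0474). Hk2 was not called: it was at 54.9 and 73.0 CPM and then at 73.6, 96 and 64.8, and the groups overlapped. Of the cells thinned to 5000 UMIs, 25.3% and 29.6% had an Hk2 UMI at 48 h and 27.5%, 33.7% and 24.4% at day 10. Pfkfb3, which makes the activator of phosphofructokinase, rose from 11.2 and 13.1 CPM to 18.0, 21.2 and 21.5 (0.78 ± 0.16, adjusted p = 0.0181). Khk rose from 25.2 and 26.1 to 40.2, 30.8 and 46.8 (0.66 ± 0.19, adjusted p = 0.0466) and was not called under total counts. Proximal tubule markers in this cluster ran from 1.24% to 3.52% of their proximal tubule level and Khk from 6.85% to 11.3% of its own, and the part of such RNA in the result was not tested. Neutrophil markers in cluster 0 were at 0.911% and 1.59% of their cluster 5 level at 48 h and at 0.0925%, 0.151% and 0.157% at day 10, and their part in the falls was not tested. Eno1, Pgk1, Pkm and Slc16a3 were called without each mouse in turn and under all other settings, while the count ran from 4 without mouse 2 to 19 without mouse 4, and was 7 without mouse 1 and 8 without mouse 5.

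**Figure D3:**
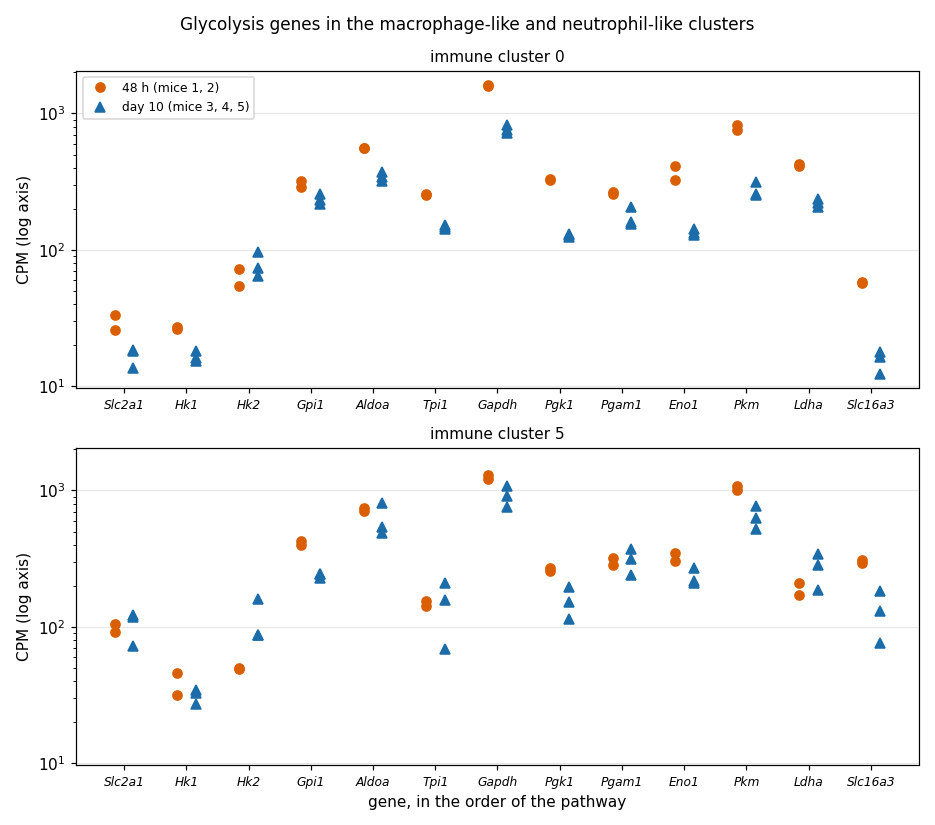
CPM (log axis) of 13 genes in the order of the pathway (x axis) in immune clusters 0 (top) and 5 (bottom), 1 point per mouse, circles for 48 h and triangles for day 10. In cluster 0 the groups separate for every gene from Aldoa to Slc16a3 and overlap for Hk2.

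Promoters of Slc16a3, Pgk1 and Ldha, among the 11 members that fell in cluster 0, are shown with the letters ACGTG in capitals. ACGTG is the core to which hypoxia-inducible factors bind, and it reads CACGT on the other strand. Promoters of other members that fell, such as Pkm, Eno1 and Gapdh, are not shown. The core was not counted among the 11, so these promoters do not stand for the members that fell as a set. The windows are the 160 bases before the first start of each gene in RefSeq's annotation of GRCm38.p6, written 5′ to 3′ in the direction of the gene. They are chr11:120948907-120949066 (+) for Slc16a3, chrX:106186940-106187099 (+) for Pgk1 and chr7:46845644-46845803 (+) for Ldha, with chr6:82774455-82774614 (-) for Hk2, which did not fall, beside them.
Slc16a3: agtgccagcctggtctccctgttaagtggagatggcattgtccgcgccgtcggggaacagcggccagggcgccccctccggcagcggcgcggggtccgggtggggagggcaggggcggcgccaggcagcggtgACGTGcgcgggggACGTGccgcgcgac
Pgk1: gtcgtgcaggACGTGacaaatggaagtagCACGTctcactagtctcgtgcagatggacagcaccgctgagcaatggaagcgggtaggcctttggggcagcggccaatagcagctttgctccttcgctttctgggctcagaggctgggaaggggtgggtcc
Ldha: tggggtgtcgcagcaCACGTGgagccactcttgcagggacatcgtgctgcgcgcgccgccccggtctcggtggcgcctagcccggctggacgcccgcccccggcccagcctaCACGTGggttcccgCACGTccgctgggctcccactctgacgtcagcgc
Hk2: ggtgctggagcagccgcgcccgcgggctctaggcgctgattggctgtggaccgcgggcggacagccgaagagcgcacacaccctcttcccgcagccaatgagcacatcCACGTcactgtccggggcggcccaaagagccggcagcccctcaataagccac
Slc16a3 and Pgk1 held 2 matches each, Hk2 held 1, and Ldha held 5 match starts, of which each CACGTG gives 2 because it reads the same on both strands. Over 250 bases before the start and both strands, ACGTG was found in 11 of the 31 members (35.5%) and in 16.6% of 27025 genes. Members with ACGTG include Hk2, which did not fall, so they are not the same 11 as those that fell. The related core GCGTG was found in 13 members (41.9%) and in 28.2% of all genes. Either core was found in 21 members (67.7%) and in 38.6% of all genes. Windows of the members held more G and C, a median of 60.8% against 52%, and a match is a description of letters, not of binding. Of 15 hypoxia-responsive genes outside the set, all tested in cluster 0, 2 fell there (Ankrd37 and Ero1l), 1 rose (Kdm3a) and the median fold was 0.22. Of all genes, 24.1% were called in that cluster.

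In the neutrophil-like immune cluster 5, 9 of the 25 members that passed the filter were called, all lower, where 18.5% of all genes were called. Slc16a3 was at 310 and 295 CPM at 48 h and at 184.5, 76.3 and 131.5 at day 10 (-1.65 ± 0.27, adjusted p = 0.00253). Gpi1, which interconverts glucose and fructose phosphates, was at 399 and 428 and then at 244, 244 and 228 (-1.30 ± 0.17, adjusted p = 0.00101). Both mice at 48 h were above all 3 at day 10 in each gene. Pgk1 was at 272 and 259 and then at 196, 114.4 and 151 (-1.25 ± 0.22, adjusted p = 0.00354), and Pkm at 1014 and 1087 and then at 771.5, 522.5 and 624.5 (-1.21 ± 0.20, adjusted p = 0.00322). Eno1 (-0.99 ± 0.20) and Gapdh (-0.96 ± 0.20) also fell without overlap, while the mice overlapped in Pfkp (-0.79 ± 0.25), Aldoa (-0.74 ± 0.23) and Pck1 (-2.04 ± 0.56).

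Pck1 in cluster 5 was at 16.8 and 61.7 CPM and then at 11.2, 11.4 and 19.7, which is 4.48% to 6.54% of its proximal tubule level, beside 3.31% to 10.4% for the proximal tubule markers. Scaling bears on all of this cluster: with total counts in place of TMM factors the median of all genes moved by 0.53, and of 9 called members 5 were lower and 4 higher. Gpi1 (-0.77), Pgk1 (-0.73), Pkm (-0.69), Slc16a3 (-1.13) and Pck1 (-1.49) were lower under total counts, and Hk2 (1.22), Khk (0.81), Mpc2 (0.56) and Pdha1 (0.72) were called higher. Gpi1, Pgk1, Pkm and Slc16a3 were lower under every scaling and without each mouse, while the count ran from 4 without mouse 5 to 9 without mouse 3, and was 5 without mouse 2 and 7 without mouse 4. Of the 7 genes of the pentose phosphate route, which branches off after hexokinase, 4 fell in cluster 5 (G6pdx -1.19, Pgd -0.93, Tkt -0.93 and Taldo1 -1.14) and 3 in cluster 0 (Rpia, Rpe and Taldo1). Of all genes, 18.5% were called in cluster 5 and 24.1% in cluster 0. The hexokinase of white blood cells, Hk3, fell in both, from 31.2 and 39.3 CPM to 19.9, 21.9 and 21.0 in cluster 0 and from 104 and 92.3 to 51.3, 61.0 and 32.9 in cluster 5.

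In the proximal tubule, with all its labels merged, 2 of 31 members were called, both lower, where 3.22% of all genes were called. Pgam1 was at 299 and 330.4 CPM at 48 h and at 186, 142 and 177 at day 10 (-1.16 ± 0.17, adjusted p = 0.0234). Eno1, which acts on the product of Pgam1, was at 251 and 275 and then at 154, 144 and 157 (-1.05 ± 0.13, adjusted p = 0.0159). In both the 48 h mice were above all day 10 mice. Neither was called without mouse 2, 3 or 5, when 0 members were, and both were among the 2 called without mouse 4 and the 6 called without mouse 1. Under total counts 2 members were lower and 2 higher, Hk1 (1.81) and Pkm (0.96), in a comparison where that scaling moved the median of all genes by 0.26.

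Pgam1 passed the test in each of the 4 proximal tubule labels tested and Eno1 in all but the Lrp2-negative one. In S1, the first segment, 3 of 30 members were called (2.82% of all genes), all lower: Eno1 (246 and 279, then 141, 123 and 154), Pgam1 (255 and 297, then 179, 115 and 171) and Pck1. In Lrp2-positive S2/S3 cells 2 of 26 were called (1.07% of all genes), Pgam1 (-1.18 ± 0.18) and Eno1 (-1.18 ± 0.16). In Lrp2-negative S2/S3 cells, whose median UMIs per cell were 1862 to 2406, 2 of 22 were called (1.43% of all genes), Pgam1 at 626 and 658 and then at 355, 264 and 267 (-1.13 ± 0.20) and Pck1 (-1.64 ± 0.39, adjusted p = 0.0452), whose groups overlapped and which DESeq2 did not call. Under total counts S1 had 2 lower and 1 higher (Slc2a1, 1.43), and Pgam1 was not called. No S1 call was left without mouse 2, 1 was left without mouse 5 and 3 without mouse 4, and no call in either S2/S3 label was left without mouse 5. Lrp2-positive cells had 0 calls without mouse 2, 1 without mouse 1 and 6 without mouse 4, and Lrp2-negative cells had 1 without mouse 2, 3 or 4.

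The hexokinases Hk1 and Hk2 and the pyruvate kinase Pkm were low in the proximal tubule and did not pass the test. Hk2 was at 1.01 and 0.171 CPM and then at 5.65, 13.9 and 4.42 (3.26 ± 0.75, adjusted p = 0.0698), and Hk1 at 2.92 and 1.45 and then at 6.49, 8.83 and 8.65 (1.55 ± 0.34, adjusted p = 0.0646). Pkm was at 19.9 and 19.2 and then at 37.2, 42.5 and 34.4 (0.70 ± 0.15, adjusted p = 0.0557). The groups did not overlap in these 3 genes.

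Of the genes of glucose synthesis, none passed the test in the merged proximal tubule. Pck1, the gene whose product sets much of the rate of the pathway, was at 332 and 1375 CPM at 48 h and at 208.5, 249 and 301.5 at day 10 (-2.01 ± 0.50, adjusted p = 0.0842). The mice at 48 h were above those at day 10, and they differed from each other by more than mouse 1 differed from any mouse at day 10. In S1 alone Pck1 fell from 374 and 1211 to 130.1, 202 and 185 (-2.35 ± 0.41, adjusted p = 0.022). G6pc, the last step to free glucose, was at 55.7 and 150.6 and then at 58.0, 179 and 87.5, and Slc37a4, which carries its substrate into the endoplasmic reticulum, was at 47.5 and 115 and then at 56.7, 98.8 and 93.8. Fbp1 was at 383 and 715 and then at 460, 372 and 558, Pcx, which makes oxaloacetate from pyruvate, was at 94.6 and 136 and then at 125, 135 and 143, and Khk was at 279 and 381 and then at 436, 346 and 415. Groups overlapped in these 5 genes, and mouse 2 was above mouse 1 in each of the 6.

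The Pck1 promoter is known for a cyclic AMP response element, and the 160 bases before its first start (RefSeq, GRCm38.p6, chr2:173152913-173153072, +) are shown with the core TGACG of that element, here on the other strand as CGTCA, in capitals.
Pck1: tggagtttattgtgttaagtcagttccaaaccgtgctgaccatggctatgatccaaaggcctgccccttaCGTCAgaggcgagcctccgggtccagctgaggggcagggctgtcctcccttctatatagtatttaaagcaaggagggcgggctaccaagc
TGACG was found on either strand in the 250 bases before the start of 7 of the 31 members (22.6%) and of 17.9% of all genes.

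Cells labelled injured proximal tubule (590 and 99 at 48 h, and 305, 48 and 251 at day 10) had 8 of 30 members called, 3 higher and 5 lower, where 5.88% of all genes were called. Of the 3 genes of glucose entry and phosphorylation 2 rose, Hk1 and Hk2 but not Slc2a1, and of the 7 hexose phosphate genes 1 rose, Pfkp, while 4 had folds below 0. Pfkp, the platelet-type phosphofructokinase, was at 17.8 and 9.81 CPM and then at 48.9, 48.0 and 48.7 (1.33 ± 0.26, adjusted p = 0.0336), and its share of phosphofructokinase UMIs was 39.1% and 27.4% and then 65.1%, 66.3% and 66.0%. Hk1 was at 1.79 and 0.307 and then at 7.68, 17.3 and 8.44 (2.45 ± 0.55, adjusted p = 0.0439). Hk2 was at 0.896 and 0.307 and then at 9.57, 49.6 and 9.14 (4.15 ± 0.94, adjusted p = 0.0443), and mouse 4, with 48 cells, was the highest.

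The Hk2 level at 48 h rests on 14 UMIs. Among injured cells thinned to 5000 UMIs, 0.6% (exact 95% interval 0.124% to 1.74%) of those of mouse 1 had an Hk2 UMI, and 0 of 88 cells of mouse 2, which allows a share of up to 3.41% at 3 counts of the total, or 4.11% by the exact interval. At day 10 the shares were 3.81% (1.92% to 6.71%), 11.9% (3.98% to 25.6%) and 4.55% (2.29% to 7.99%); without thinning they were 12.8%, 29.2% and 10.4%, against 1.86% and 1.01% at 48 h. In S1 cells of the same mice the thinned shares were 0% and 0% and then 0.427%, 1.15% and 0%. Intervals and limits cover counting error only.

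Of the 6 genes of glucose synthesis and fructose use, 2 fell in the same cells. Pck1 was at 297 and 1214 CPM and then at 126, 60.7 and 209.5 (-2.88 ± 0.64, adjusted p = 0.0424), and G6pc at 40.6 and 96.2 and then at 15.01, 21.3 and 31.2 (-1.98 ± 0.41, adjusted p = 0.0377). Neither overlapped between groups. Pgam1 was at 282 and 309 and then at 193, 176 and 176.5 (-1.12 ± 0.18), Pgk1 at 244 and 310.5 and then at 199.5, 149.6 and 172 (-1.08 ± 0.22), and Eno1 at 233.5 and 238 and then at 156.5, 176 and 160.1 (-0.95 ± 0.16). Ldhb was at 811 and 806 and then at 2104, 1240 and 1993 without passing the test (0.73), and the share of Ldha among the UMIs of both was 35.4% and 37.6% and then 16.0%, 20.7% and 16.9%.

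Proximal tubule markers in the injured label were at 103% and 116% of the proximal tubule level at 48 h and at 71.8%, 43.9% and 67.8% at day 10. That level is of the merged proximal tubule, which includes the injured cells themselves. They held 14514951 of its 19849795 UMIs in mouse 1, the largest part, and 1269684 of 6570712 in mouse 4, the smallest. The share of the markers also moves with that merged level. Merged Kap, a gene among them, was at 6646 and 9398 CPM at 48 h and at 16909, 204.2 and 12666 at day 10. The share therefore does not show whether the summed markers themselves fell in the injured cells. Of the 10 markers summed, only Lrp2, a marker of mature proximal tubule, was called in the injured label, where 5.88% of all genes were. It fell (-1.76 ± 0.36, adjusted p = 0.0364). Macrophage markers were at 0.232% to 1.63% of their cluster 0 level. The median mitochondrial share of a cell's UMIs was 21.8% and 23.8% and then 16.9%, 9.29% and 15.3%, and the part of these in the results was not tested. No call was left without mouse 2, 3 or 5, 4 members were called without mouse 4, 3 of them the same genes, and Hk2 was lost without mouse 1. Under total counts 5 members were higher (Hk1 2.88, Hk2 4.62, Pfkp 1.75, Pkm 1.38 and Ldhb 1.14) and 3 lower (Pck1 -2.49, G6pc -1.57 and Pgam1 -0.70), and the median of all genes moved by 0.41.

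**Figure D4:**
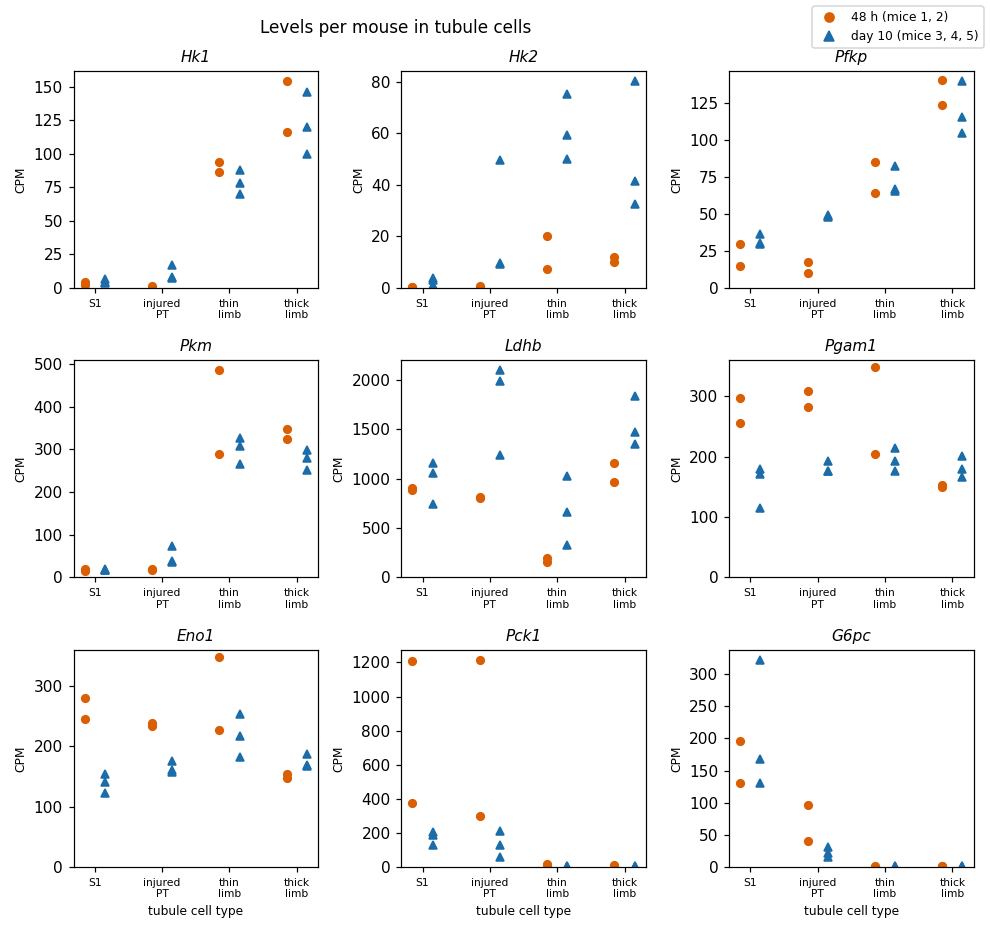
CPM (y axes, each from 0) of 9 genes in 4 tubule labels (x axes), 1 point per mouse, circles for 48 h and triangles for day 10. Hk2 at day 10 lies above 48 h in the injured proximal tubule, thin limb and thick limb, and Pck1 at 48 h is split between mouse 1 and mouse 2.

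In the thick ascending limb, the segment that reabsorbs salt, 3 of 30 members were called where 10.4% of all genes were. Hk2 rose from 11.96 and 9.91 CPM to 80.2, 41.4 and 32.5 (1.88 ± 0.38, adjusted p = 0.0257). Its cells with an Hk2 UMI, thinned to 5000 UMIs, went from 4.46% and 2.96% to 18.9%, 10.6% and 10.9%, and the share of Hk1 among hexokinase UMIs from 90.7% and 94.0% to 55.5%, 77.9% and 78.7%. Hk1 itself was at 116 and 154 and then at 100.2, 146 and 119.7 CPM and was not called. Aldoc, a minor aldolase here, fell from 18.6 and 47.7 to 8.44, 5.94 and 9.96 (-2.34 ± 0.39, adjusted p = 0.0148), and Pkm from 348 and 324 to 299, 279.6 and 253 (-0.64 ± 0.13, adjusted p = 0.025).

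The median mitochondrial share of a cell's UMIs in the thick ascending limb was 23.0% and 21.8% at 48 h and 7.20%, 8.70% and 6.89% at day 10, and CPM counts these UMIs in its total. The summed level of the 31 genes was 5921 and 6391 and then 7272, 6739 and 6992, and with mitochondrial UMIs left out it was 7547 and 8163 and then 7854, 7395 and 7579, where the groups overlapped. Under total counts Hk2 (2.24) and Khk (0.88) were higher, Aldoc (-1.98) lower and Pkm (-0.28) not called, and the median of all genes moved by 0.36. No member was called without mouse 4 or without mouse 5. Hk2 was not called without mouse 2, Pkm was not called without mouse 1 or 3, and without mouse 1 the number called was 5. Of 30 other genes of the pathway tested here, 4 fell (Ldhd, Slc5a1, Slc16a7 and Pdk4) and none rose, where 10.4% of all genes were called. Pdk4, a kinase that like Pdk1 switches off pyruvate dehydrogenase, was at 79.3 and 93.0 CPM and then at 9.54, 8.53 and 19.5 (-3.13 ± 0.29, adjusted p = 0.00277).

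In the descending thin limb 6 of 28 members were called, 2 higher and 4 lower, where 5.12% of all genes were. Hk2 rose from 20.2 and 7.25 CPM to 75.4, 59.5 and 50.02 (2.06 ± 0.35, adjusted p = 0.0128), and 5.33% and 1.32% and then 24.0%, 23.6% and 14.1% of thinned cells had an Hk2 UMI. Ldhb rose from 198 and 155 to 1031, 325 and 663 (1.87 ± 0.40, adjusted p = 0.0317), and the share of Ldha went from 74.3% and 71.7% to 22.9%, 48.6% and 29.0%. The groups did not overlap in either gene. Mpc2 fell from 1124 and 1377 to 641, 566 and 709.6 (-1.01 ± 0.14, adjusted p = 0.00596), and so did Pgk1 (-0.97 ± 0.22), Aldoa (-0.77 ± 0.18) and Ldha (-0.76 ± 0.18, adjusted p = 0.0475). Pdk4 fell here too (-2.79 ± 0.36). Mpc2 was called without each mouse and under all other settings, and the number called was 2 without mouse 1 or 5, 3 without mouse 3, 5 without mouse 4 and 8 without mouse 2.

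In interstitial cells, the fibroblasts and mural cells between the tubules, 2 of 29 members were called, both higher, where 7.44% of all genes were. Slc16a1 rose from 7.76 and 5.24 CPM to 49.4, 33.6 and 34.6 (2.59 ± 0.38, adjusted p = 0.00654). Hk2 rose from 5.17 and 0 to 27.6, 25.4 and 21.6 (3.09 ± 0.58, adjusted p = 0.0175), with 4 UMIs in all at 48 h. Of thinned cells, 1.64% and 0% and then 9.32%, 13.0% and 5.69% had an Hk2 UMI, where 0 of 45 cells of mouse 2 allow a share of up to 6.67% at 3 counts of the total, or 7.87% by the exact interval. Proximal tubule markers, of a type where Slc16a1 is at 35.8 to 41.2 CPM, were at 6.49% and 3.72% and then 3.92%, 2.08% and 2.57% of their own level in these cells, and macrophage markers at 0.0628% to 1.497% of the cluster 0 level. Slc16a1 was not called without mouse 1, when 1 member was, both were called without mouse 4, and Hk2 was not called with equal numbers of cells and counts per mouse.

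No member was called in the remaining types. Endothelial cells had 0 of 30 (0.328% of all genes), with 7 at an unadjusted p under 0.05 and 1 called by DESeq2, and the distal tubule with principal cells 0 of 31 (0.00774% of all genes), with 2 at an unadjusted p under 0.05 and 0 called by DESeq2. Intercalated cells had 0 of 27 (0.238% of all genes) and 8 at an unadjusted p under 0.05, the low-depth tubule cells labelled TEC 0 of 24 (0.525%) and 4, and immune cluster 10 0 of 17 (0.0971%) and 3. In endothelial cells Bpgm, which makes 2,3-bisphosphoglycerate, had the lowest unadjusted p (0.000903), at a fold of -1.12 ± 0.21.

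**Figure D5:**
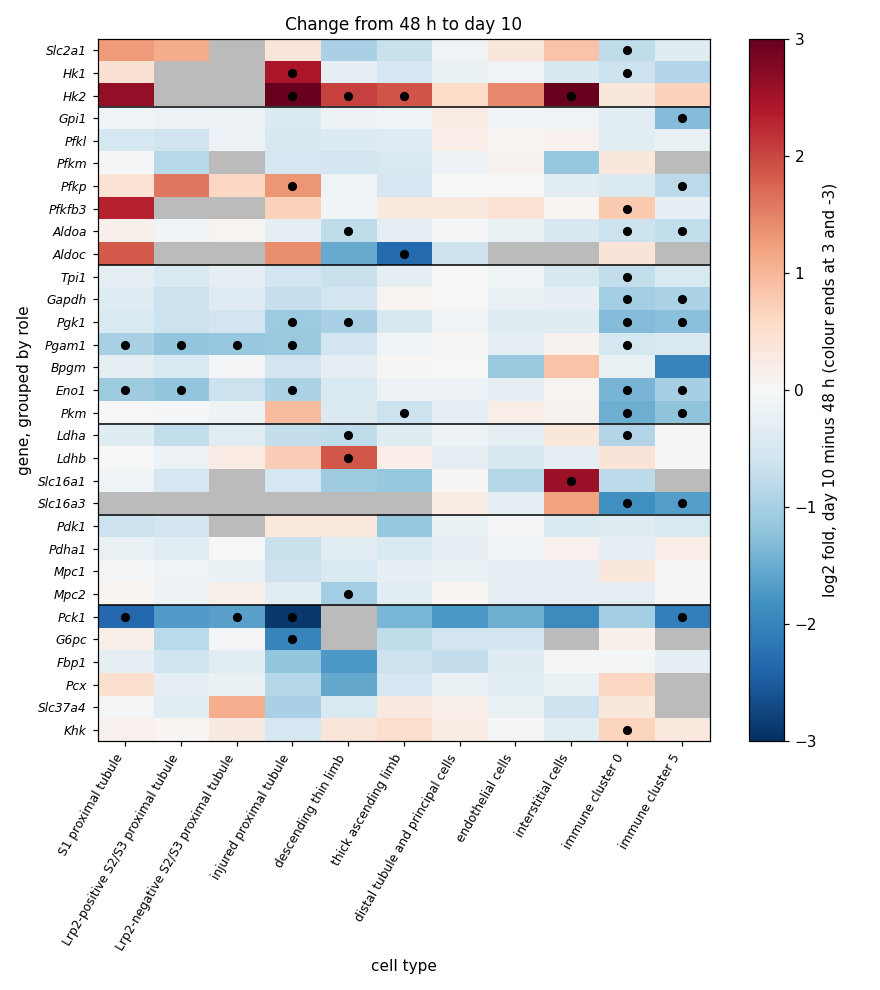
Log2 fold, day 10 minus 48 h (colour, red higher and blue lower at day 10, grey not tested), of each gene (rows, grouped by role) in 11 types or clusters (columns), with a black dot where the edgeR adjusted p was under 0.05. Dots on blue mark Tpi1, Gapdh, Pgk1, Pgam1, Eno1, Pkm and Ldha in immune cluster 0, while the Hk2 row is dotted on red in the injured proximal tubule, both limbs and interstitial cells.

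Whether the change with time differed between types was tested with an interaction term and the mouse as a block. Between the proximal tubule and the thick ascending limb it differed for 7 of 30 members, where 7.38% of all genes did. Pkm had a fold of 0.70 in the proximal tubule and -0.64 in the limb, Aldoc of 1.55 and -2.34, Slc2a1 of 0.61 and -0.67, Hk1 of 1.55 and -0.51 and Pfkp of 0.86 and -0.50. Aldoc was low in the proximal tubule, where Aldoa gave 99.1% to 99.9% of the UMIs of Aldoa and Aldoc. Pgam1 (-1.16 and -0.09) and Eno1 (-1.05 and -0.15) were lower in the proximal tubule. Without mouse 5, 4 of the 7 passed and Hk1, Pfkp and Eno1 did not; Eno1 was also lost without mouse 2 and Pfkp without mouse 3. The change of Hk2 did not pass this test (difference 1.33 ± 0.80, adjusted p = 0.326).

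Between the proximal tubule and immune cluster 0 the change differed for 5 of 31 members, where 6.95% of all genes did: Hk1, Hk2, Pfkp, Pkm and Slc2a1, each with the larger fold in the proximal tubule. Pkm was at 0.70 and -1.47 (difference 2.10 ± 0.16, adjusted p = 0.00668), and it was called without each mouse, when between 1 (without mouse 2, 3 or 5) and 7 (without mouse 4) members were. Both comparisons use the proximal tubule of the same mice. Eno1, which fell in both types, had a difference of 0.27 ± 0.17 (adjusted p = 0.381).

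Other genes of sugar use were taken from lists beside the 31. None of 33 tested other genes of the pathway passed in the proximal tubule, where 3.22% of all genes were called. In the injured label 1 of 29 passed, where 5.88% of all genes were called. It was the glucose carrier Slc2a2, which fell from 140.3 and 115.5 CPM to 88.4, 71.7 and 92.1 (-1.01 ± 0.21, adjusted p = 0.0367). In cluster 0, 4 of 34 rose (Slc16a7, Pdk2, Pck2 and Galm) and 3 fell (Hk3, Eno3 and Pgm2), where 24.1% of all genes were called. In cluster 5, 3 of 12 fell (Hk3, Pfkfb4 and Slc2a3) and Pdhb rose, where 18.5% were called. Taldo1, the transaldolase of the pentose phosphate route, fell in the merged proximal tubule from 455 and 553 to 226, 202 and 209 (-1.504 ± 0.15, adjusted p = 0.0112), and also in the injured label and in interstitial cells. Of the 15 hypoxia-responsive genes, none of those tested passed in the proximal tubule or its injured label, and 2 of 13 fell in the thick ascending limb (Bhlhe40 and Ero1l), where 10.4% of all genes were called. One gene rose in each of interstitial cells (Mxi1, 1 of 12, beside 7.44% of all genes), cluster 5 (Bhlhe40, 1 of 12, beside 18.5%) and the thin limb (Ddit4, 1 of 13, beside 5.12%).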

How the data were processed

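The authors deposited raw UMI counts per gene and barcode for each library, made from 10x Genomics Single Cell 3′ v3.1 libraries, with a table of the kept cells and their type labels and clusters. Seurat 4.0.5, Cell Ranger 6.0.2 and the mm10 genome are named in the submitters' processing notes, but the file headers have Cell Ranger 6.0.0; the version behind the counts is not settled. The percent of mitochondrial UMIs per cell is the authors' deposited value, and the source does not give how it was computed. Tools for alignment beyond these are not given in the sources used here. Doublet removal was not repeated; all kept cells had under 35% mitochondrial UMIs.

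Counts were summed per mouse over the cells of a label, of labels merged into a type, or of an immune cluster. Tests were run only in types with at least 20 cells in every library. The ranking by summed level also includes types with fewer cells. These are immune cluster 12 (18, 9 and 11 cells at day 10), podocytes (15 in mouse 2) and cycling proximal tubule cells (18 in mouse 4). A second gene entry for Aldoa (8 UMIs) was left out. CPM uses all UMIs of the type; 3′ tags were not scaled by length. Day 10 was compared with 48 h by edgeR 4.0.16 (R 4.3.3, limma 3.58.1; filterByExpr, TMM, glmQLFit, glmQLFTest, Benjamini-Hochberg over all genes of the type, threshold 0.05). The code was run on simulated counts of the proximal tubule and cluster 0. The changes set there were large and in genes with many counts, so that run does not cover small folds or low genes such as Hk2. Standard errors are the fold divided by the root of the F statistic. Differences between types used an interaction term with the mouse as a block. DESeq2 1.42.0, no filter, total counts and leaving out each mouse were alternatives. For shares of cells, each cell was thinned to 5000 UMIs; intervals are exact binomial. Cells of one mouse are not replicates.

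The 31 members and the other lists were chosen with earlier results of these data known, and so was the rule for genes named: every called member in the main types, and the 6 genes of glucose synthesis in the proximal tubule. Members named in the separate proximal tubule labels and the descending thin limb, and those named without a call, were added after their values were seen. Promoter windows come from RefSeq's table for GRCm38.p6, which held all 31 members.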

Additional observations from a re-analysis of the deposited data

Results flagged for a closer look

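The 12 values below drew attention because the change from 48 h to day 10 differed between cell types of the same mice in an interaction test (edgeR, log2, adjusted p under 0.05). Between the proximal tubule and the thick ascending limb, the change was larger in the proximal tubule by 3.70 for Aldoc, 2.05 for Hk1, 1.45 for Pfkp, 1.37 for Slc2a1 and 1.36 for Pkm. For Pgam1 the difference was -1.05 and for Eno1 -0.87, the proximal tubule being the lower. Aldoc, Pgam1, Pkm and Slc2a1 passed without each mouse in turn. Aldoc rests on a low proximal tubule level, where Aldoa gave 99.1% to 99.9% of the UMIs of Aldoa and Aldoc.

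Between the proximal tubule and immune cluster 0, the differences were 2.68 for Hk2, 2.12 for Hk1, 2.10 for Pkm, 1.36 for Slc2a1 and 1.28 for Pfkp. Pkm passed without each mouse in turn, and Hk1 and Hk2 rest on low proximal tubule levels of at most 8.83 and 13.9 CPM.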

How the results depend on the processing

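Of the values, under an alternative, of members called in the main test, 396 kept their direction and passed, 149 kept their direction without passing and none reversed. Among all tested members, called or not, the number with a fold below 0 went under total counts from 22 to 15 of 31 in the proximal tubule, from 23 to 16 of 30 in the thick ascending limb and from 20 to 11 of 25 in cluster 5. With DESeq2, 9 members were called in the proximal tubule (3 higher, 6 lower), 7 in the thick ascending limb, 1 in endothelial cells, 5 in Lrp2-positive and 1 in Lrp2-negative S2/S3 cells. With no filter on low counts, 8 were called in the proximal tubule, 11 in the thick ascending limb, 2 in endothelial cells, 4 in interstitial cells, 16 in the injured label, 12 in the thin limb, 5 in S1 and 7 in Lrp2-positive S2/S3 cells. The cause was not tested. Equal numbers of cells and counts gave 4 in the proximal tubule and 1 in interstitial cells, and total counts 4 in the proximal tubule. The share of all genes called under each alternative is not given here, so these counts are not a result about the members.

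Without each mouse in turn, which leaves fewer samples, the counts ran from 0 to 6 in the proximal tubule, 0 to 5 in the thick ascending limb, 1 to 3 in interstitial cells, 4 to 19 in cluster 0, 4 to 9 in cluster 5, 0 to 8 in the injured label, 2 to 8 in the thin limb, 0 to 3 in S1, 0 to 6 in Lrp2-positive and 0 to 2 in Lrp2-negative S2/S3 cells. The interaction tests gave 4 to 9 members against the thick ascending limb and 1 to 7 against cluster 0. These counts too are given without the share of all genes called, and are not a result about the members.

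The summed level changed by 0.19 (log2) in the thick ascending limb and by -0.045 with mitochondrial UMIs left out. Without Gapdh and Aldoa it changed by -0.063 in interstitial cells (-0.16 with them) and by -0.79 in cluster 0 (-0.85 with them). No paired analysis was possible because the mice at 48 h and at day 10 are different animals that share no number. With 2 mice against 3, depth of low genes such as Hk2 at 48 h, and few cells in the injured label of mouse 4, limit what can be called.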
